A study of Mus musculus with 2 samples.

Results

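Mt1 and Mt2, the metallothionein genes that most cell types can switch on, were followed through the lymphocytes of mouse ear epidermis, 2 genes of the 31053 in the count matrices. The pair was chosen from its UMIs (unique molecular identifiers, each standing for 1 captured transcript) by library and cell class in these same data, so the levels below are a description, with no test. Epidermal cells sorted as live CD45+EpCAM-MHC-II- came from 8-week-old female wild-type FVB/NJ mice whose ears had received an intradermal injection of an isotype control antibody or of an anti-Skint1 antibody 7 d earlier. Skint1 is a keratinocyte protein that dendritic epidermal T cells (DETCs), the gamma-delta T cells resident in mouse epidermis, need for their selection. One library was sequenced per treatment, from a single mouse each by the way sample numbers are counted in the study's methods, so treatment, mouse and library cannot be told apart. Cells are not replicates of a treatment, and every interval below is a 95% interval for counting error alone.

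Metallothioneins are small, cysteine-rich proteins that bind zinc and copper and buffer them inside the cell. Their genes respond to metal through MTF1, a zinc-sensing transcription factor that binds metal response elements (MREs), and are also known to respond to glucocorticoids, oxidants and other stresses. Mt1 and Mt2 are made widely, Mt3 mainly in the brain and Mt4 in stratified epithelium such as the skin's own.

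The promoters are shown because both genes are known targets of MTF1. Mt1 (ENSMUSG00000031765) and Mt2 (ENSMUSG00000031762) lie side by side on the plus strand of chromosome 8, at 94179082 to 94180327 and 94172664 to 94173568 in GENCODE coordinates on GRCm38, with 3 exons each. Below are the 250 bases before each annotated start in RefSeq, GRCm38.p6, plus strand, with MRE matches in capitals. An MRE was searched as TGCACNC or TGCGCNC on both strands.
Mt1, chr8:94178839-94179088: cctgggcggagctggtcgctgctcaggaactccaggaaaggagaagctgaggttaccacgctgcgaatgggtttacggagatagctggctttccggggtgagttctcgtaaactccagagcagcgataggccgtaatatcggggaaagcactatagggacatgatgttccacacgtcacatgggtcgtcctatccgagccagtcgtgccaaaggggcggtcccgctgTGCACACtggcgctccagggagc
Mt2, chr8:94172368-94172617: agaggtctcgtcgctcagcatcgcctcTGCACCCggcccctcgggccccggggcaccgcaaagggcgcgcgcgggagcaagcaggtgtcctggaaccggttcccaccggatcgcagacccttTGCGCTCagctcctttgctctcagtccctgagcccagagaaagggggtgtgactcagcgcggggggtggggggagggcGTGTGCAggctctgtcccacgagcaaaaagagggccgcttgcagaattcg
Just after its RefSeq start Mt1 held a pair of further matches, at chr8:94179091-94179115, also in capitals. Mt2 held 1 after its RefSeq start, GTGCGCA, at chr8:94172622-94172628. The GENCODE start of Mt2, 94172664, lies further on, so by that annotation the Mt2 match comes before the start.
Mt1 after the start: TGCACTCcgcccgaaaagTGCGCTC

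Over the whole 300-base window, to 50 bases past the start, Mt1 had 3 MRE matches and Mt2 had 4. At least 2 matches were found in 7.11% of 32851 such windows in the genome, and 4 or more in 0.517%. The Mt2 window also held 1 match to the AP-1 motif TGANTCA, the site of Fos and Jun dimers, at base -79. It was overlapped by 1 match to the antioxidant motif TGACNNNGC, while the Mt1 window held neither. Sequence outside the windows was not searched, so counts and absences hold for the windows alone and depend on the start used. These motifs were in 7.81% and 12.4% of the windows. Neither window held a heat shock motif (GAANNTTC or TTCNNGAA, in 15.1% of windows). A match is a run of letters, not a bound site.

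Libraries held 27272211 (isotype) and 32450957 (anti-Skint1) UMIs, and 4242 and 5961 barcodes passed the limits of 500 to 2500 genes and at most 12% mitochondrial UMIs, with 5 barcodes in common. Without those 5, Mt1 in DETCs was 131 and 93.4 CPM (UMIs per 1000000 UMIs of the class), against 131 and 93.3 with them. DETCs were gated as at least 3 Trdc UMIs, at least 3 CD3 UMIs and no Trac, Cd4, Cd8a or Cd8b1, which gave 3544 and 4945 cells. In heat shock-low DETCs all 6 DETC markers were detected and summed to 12973 and 12180 CPM, while keratinocyte markers summed to 47.0 and 60.3 CPM. Dermal gamma-delta T markers summed to 51.2 and 41.7 CPM there, and the gate required neither of the receptor genes Trdv4 and Tcrg-V5. DETCs were split by their share of UMIs from Hspa1a and Hspa1b, the inducible Hsp70 chaperones, into heat shock-low (below 0.2%, 1925 and 3101 cells), heat shock-mid (1265 and 1624) and heat shock-high (above 1%, 354 and 220). Other classes were alpha-beta T cells (at least 1 Trac UMI, no Trdv4, 197 and 213 cells) and innate lymphoid-like cells (ILC, at least 3 UMIs of Il7r, Rora and Gata3, few CD3 UMIs, no Trdv4, 82 and 139), with 9 and 14 cells in both.

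Mt1 was a low to moderate transcript in DETCs and Mt2 a rare one. In DETCs of the isotype library Mt1 stood at 131 CPM (125 to 137, 1922 UMIs), and in the anti-Skint1 library at 93.3 CPM (89.0 to 97.8, 1746 UMIs). Mt2 stood at 12.96 CPM (11.2 to 14.9, 190 UMIs) and 9.30 CPM (7.97 to 10.8, 174 UMIs). Mt3 had 0 UMIs in DETCs of both libraries, which allows up to 0.252 and 0.197 CPM by the exact interval, and Mt4 had 13 and 39 UMIs. For comparisons across genes, 50 CPM over all kept cells was required. Mt1 (118 CPM) passed and Mt2 (15.2 CPM) did not, so 1 of 2 members entered those counts.

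RNA outside cells was estimated as background. Barcodes with 1 to 100 UMIs, taken as free RNA, held 331 and 345 CPM of Mt1 and 180 and 165 CPM of Mt2. Keratinocyte markers put the free share of DETC UMIs at 2.96% and 2.81%, with Dsp the leading marker in the heat shock-low DETCs of the isotype library. Krt14 alone put it at 1.45% and 1.68%. By the marker list, free RNA would supply 9.79 and 9.69 CPM of Mt1, 7.47% and 10.4% of its level in DETCs. For Mt2 it would supply 41.0% and 49.7%, or 20.0% and 29.6% from Krt14 alone, so Mt2 levels near 5 CPM cannot be told from free RNA.

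**Figure D1:**
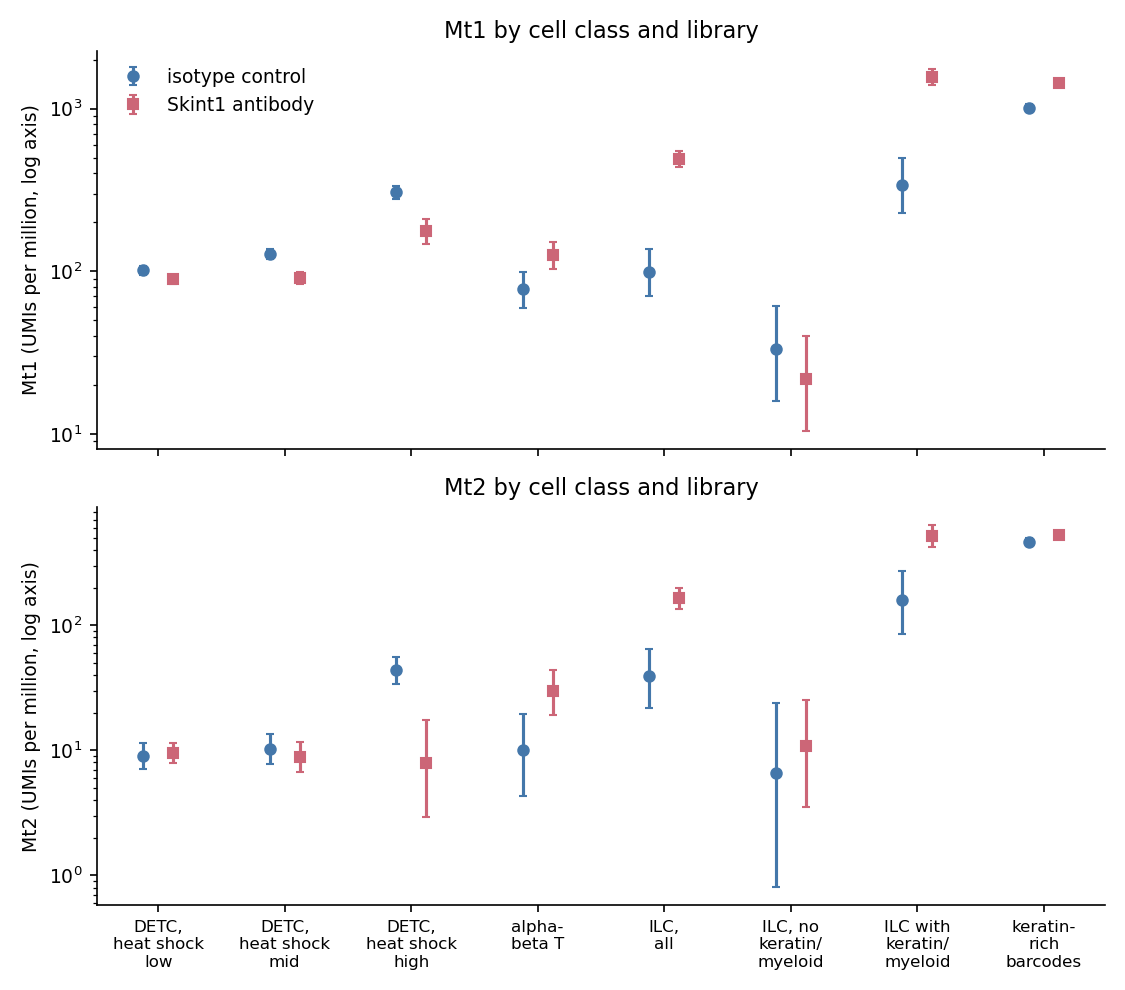
Mt1 (top) and Mt2 (bottom) in CPM of each cell class, on log axes, with 1 point per library and exact 95% Poisson intervals for counting error. ILC barcodes without keratinocyte or myeloid UMIs were lowest for Mt1, at 33.2 and 21.8 CPM, and keratin-rich barcodes reached 1007 and 1429 CPM.

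Ordered by level in the isotype library, Mt1 was lowest in ILC without other-lineage UMIs, then alpha-beta T cells, heat shock-low, -mid and -high DETCs, and alpha-beta T cells overlapped by interval with both of their neighbours. In the other library the order was ILC without other-lineage UMIs, heat shock-low and -mid DETCs, alpha-beta T cells and heat shock-high DETCs, with overlap between the low and mid classes and between alpha-beta T cells and heat shock-high DETCs.

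Within DETCs, Mt1 was highest in the heat shock-high cells of both libraries. In the isotype library Mt1 was 101 CPM (94.3 to 108) in heat shock-low, 128 CPM (118 to 138) in heat shock-mid and 305 CPM (278 to 335) in heat shock-high DETCs. The same classes of the anti-Skint1 library gave 89.4 (84.1 to 94.9), 90.7 (83.3 to 98.6) and 177 CPM (148 to 209). Intervals of the mid and low classes were separate in the isotype library and overlapped in the anti-Skint1 library, whereas the high class stood apart in both. The log2 ratio of high over low was 1.59 (1.42 to 1.76, 3.02-fold) and 0.98 (0.71 to 1.25, 1.98-fold). Among 2827 genes at 50 CPM, 1.52% and 1.45% were at least 1.5-fold higher in the same comparison, where Mt1 ranked 10 from the top in each library, and the median log2 ratio of all of them was -0.04 and -0.03. Genes of the heat shock list, part of which defined the classes, make up 10 and 8 of those called. By finer steps of the Hsp70 share, Mt1 of the isotype library was 79.7 CPM in cells with no Hsp70 UMI, 111, 126, 110 and 124 CPM in the steps up to 0.1, 0.2, 0.4 and 0.7%, then 168 CPM up to 1%, 263 CPM up to 1.5% and 389 CPM above. The same steps gave, for the anti-Skint1 library, 108, 63.4, 96.7, 93.9, 85.9, 91.9, 212 and 91.5 CPM (55.9 to 141, 20 UMIs in 68 cells). In the isotype library the steps between 0 and 0.7% overlapped by interval with their neighbours, while the cells with no Hsp70 UMI (70.4 to 90.0) lay below them and the steps from 0.7% on (145 to 193, 232 to 297 and 336 to 449) lay above them in turn. In the other library the step up to 0.1% (56.1 to 71.4) was below the rest up to 1% and the step from 1 to 1.5% (174 to 254) above them, with no even rise.

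A few cells carried much of the heat shock-high value. The 10 cells with most Mt1 held 50.1% of the Mt1 UMIs of heat shock-high DETCs in the isotype library and 75.9% in the anti-Skint1 library. Without the 10 highest cells of each group, the log2 ratio was 1.00 in the isotype library and -0.74 in the anti-Skint1 library. That setting takes 10 of 220 cells from one side and 10 of 3101 from the other, so it lowers the smaller group more by construction. Mt2 differed between libraries. It was 43.9 CPM (33.8 to 56.1, 64 UMIs) in heat shock-high against 9.02 CPM in heat shock-low DETCs of the isotype library, a log2 ratio of 2.28 (4.87-fold). That ratio was 0.78 without the 10 highest cells of each group, 1.5 with no upper gene limit and 1.34 with heat shock edges of 0.1% and 0.5%. In the anti-Skint1 library it was 7.97 CPM (2.93 to 17.4, 6 UMIs) against 9.60 CPM, which counting error does not separate.

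Mt1 was several times higher in DETCs rich in immediate early transcripts than in DETCs poor in them. The 11 immediate early genes (such as Fos, Junb, Egr1 and Atf3) encode transcription factors and feedback regulators made within minutes of a stimulus, and DETCs of both libraries were divided into tertiles by the share of UMIs from them, with edges at 0.505% and 1.34%. In the isotype library Mt1 was 30.8 CPM (26.0 to 36.4) in the low tertile, 149 CPM (139 to 160) in the middle and 209 CPM (196 to 223) in the high tertile. Anti-Skint1 DETCs gave 27.3 (23.5 to 31.6), 123 (115 to 133) and 136 CPM (127 to 145). Most of the step lay between the low and the middle tertile in both libraries. High over low was 6.78-fold (log2 2.76, 2.51 to 3.03) and 4.98-fold (log2 2.32, 2.08 to 2.56). Of 2827 genes, 10.8% and 11.6% were at least 1.5-fold higher, and Mt1 ranked 33 and 52 from the top. The 11 list genes defined the tertiles and were all among those called. Median depth was alike, at 3951 and 3932 UMIs per cell in the high and low tertiles of the isotype library and 3457 and 3665 in the other.

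The step was present where Hsp70 was low. Among heat shock-low DETCs of the isotype library, Mt1 was 21.4 CPM in the immediate early-low tertile, 149 CPM in the middle and 156 CPM in the high tertile. The same cells of the anti-Skint1 library gave 18.2, 124 and 149 CPM. These are 7.28-fold (log2 2.86, 2.48 to 3.27) and 8.19-fold (log2 3.03, 2.71 to 3.38) from low to high. The same estimate puts free RNA at 13.6 of the 21.4 CPM and 8.03 of the 18.2 CPM of Mt1 in these low cells, or at 5.25 and 4.17 CPM from Krt14 alone, so the size of the folds depends on background. In the high cells it puts free RNA at 9.17 and 8.00 CPM. Without the 10 highest cells of each tertile, over all DETCs, the high-over-low log2 ratio was 3.18 and 2.72, larger than with them. Mt2 was 2.82, 11.7 and 24.3 CPM over the tertiles of the isotype library, and 4.97, 12.98 and 10.4 CPM over those of the other. By the keratinocyte-marker estimate free RNA would supply 6.54 CPM of Mt2 in the low tertile of the isotype library, more than was found, and 3.92 of the 4.97 CPM in the other.

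Within heat shock-high cells the order of the libraries depended on the immediate early tertile. Heat shock-high DETCs in the immediate early-high tertile had 469 CPM of Mt1 (420 to 523, 174 cells) in the isotype library and 93.0 CPM (62.8 to 133, 98 cells) in the anti-Skint1 library. In the middle tertile the order was the other way, 178 CPM (147 to 213, 117 UMIs in 157 cells) against 287 CPM (234 to 350, 100 UMIs in 100 cells). The low tertile held 23 and 22 such cells with 1 and 3 Mt1 UMIs, too few to order. Of the 133 Mt1 UMIs of anti-Skint1 heat shock-high DETCs, 75.9% came from 10 cells, as given above, so these tertile values rest on few cells. Mt2 had 57 and 0 UMIs in the cells high for both, where 0 UMIs allows up to 11.4 CPM by the exact interval.

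**Figure D2:**
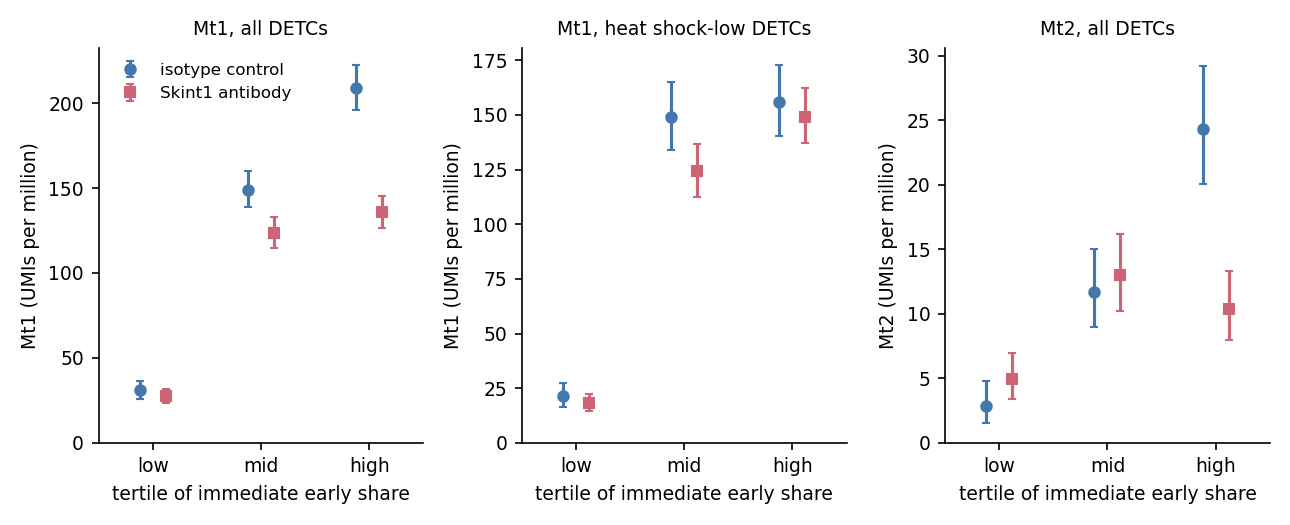
Mt1 in all DETCs (left), Mt1 in heat shock-low DETCs (middle) and Mt2 in all DETCs (right), in CPM, by tertile of the immediate early share, with 1 point per library and exact 95% Poisson intervals. Mt1 in heat shock-low DETCs goes from 21.4 and 18.2 CPM in the low tertile to 156 and 149 CPM in the high tertile.

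Mt1 was uneven from cell to cell. Isotype DETCs had an Mt1 UMI in 15.0% of cells (13.8 to 16.2%) and anti-Skint1 DETCs in 11.7%, and with each cell thinned to 2000 UMIs, 134 and 202 shallower cells left out, in 10.7% and 8.77%. The highest cell held 36 and 25 UMIs. Cells with 5 or more Mt1 UMIs, 110 and 104 in number, held 62.9% and 55.6% of all Mt1 UMIs of DETCs. The Fano factor of Mt1 (variance over mean, thinned cells) was 4.72 and 3.88, against a median of 1.06 over genes in both libraries, and 16 of 2868 and 21 of 2805 genes had a higher one. For Mt2 it was 2.15 and 1.18. Intervals for counting error do not hold this spread, here or in the other comparisons.

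Mt2 was detected more often in DETCs that also held Mt1. Mt2 was detected in 1.49% (1.09 to 1.99%) of isotype DETCs with no Mt1 UMI, in 6.80% of those with 1 to 2, in 15.2% with 3 to 5, in 28.0% with 6 to 10 and in 27.9% (15.3 to 43.7%) with 11 or more. In anti-Skint1 DETCs the shares were 1.37%, 8.66%, 14.8%, 20.4% and 28.6% (13.2 to 48.7%). Detection climbed in both libraries, while median depth went from 3952 to 4939 and from 3513 to 4452 UMIs per cell. The level of Mt2 over the same bins went from 5.30 to 206 CPM in the isotype library, whereas in the other it went from 4.11 to 88.0 CPM at 6 to 10 Mt1 UMIs and was 74.0 CPM at 11 or more. Of Mt2-positive DETCs, 64 of 109 and 69 of 129 also held Mt1.

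**Figure D3:**
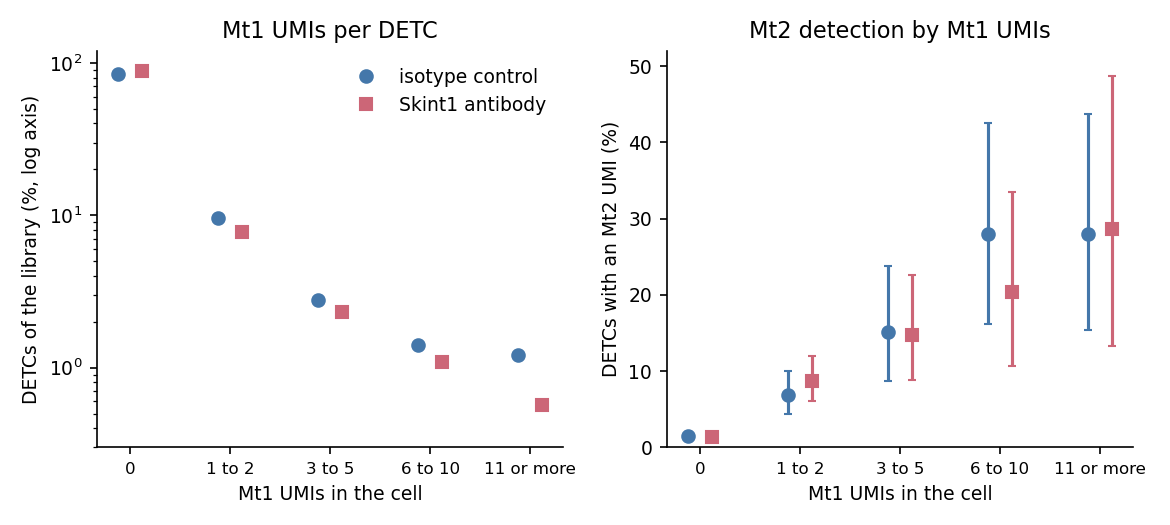
Left, share of DETCs of each library by their number of Mt1 UMIs, on a log axis; right, share of those DETCs with an Mt2 UMI, with exact 95% binomial intervals. Mt2 detection climbs from 1.49% and 1.37% of cells without Mt1 to 27.9% and 28.6% of cells with 11 or more Mt1 UMIs.

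Across DETCs, the gene most like Mt1 was Mt2. The Pearson correlation of log-normalized values was 0.30 over 3544 isotype cells and 0.26 over 4945 anti-Skint1 cells. Next came Hist1h2bc, a core histone gene (0.13 and 0.14), Ier5l (0.12 and 0.12), Fos (0.16 and 0.12) and Junb (0.15 and 0.12). For Mt2, the next genes were Hspa5, the endoplasmic reticulum chaperone, Hilpda, Dusp5 and Rcc1l, with r of 0.05 to 0.07. All cells of a library share its depth and free RNA, and correlations this small in sparse counts are no finding.

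DETCs with 3 or more Mt1 and Mt2 UMIs after thinning (91 and 112 cells) were set beside those with 0 (2999 and 4290), leaving out cells with 3 or more keratinocyte or myeloid UMIs. Median depth was 4447 against 4042 UMIs per cell before thinning in the isotype library and 3685 against 3603 in the other, and keratinocyte markers summed to 35.4 against 38.0 CPM and 54.8 against 44.8 CPM. Of 11 immediate early genes, 6 were at least 1.5-fold higher in the metallothionein-high cells of the isotype library, with a median log2 ratio of 0.59, and 1 in those of the anti-Skint1 library, with a median of 0.39. Over all 2826 genes other than Mt1, 2.44% and 2.87% were that much higher, with medians of -0.05 and -0.04. Atf3, a stress-induced partner of AP-1, was 416 against 197 CPM in the isotype library (log2 1.08, 0.85 to 1.30). In the anti-Skint1 library Atf3 was 257 against 136 CPM (log2 0.92, 0.64 to 1.19). Nr4a1, the early response factor also known as Nur77, gave 0.80 and 0.55. The share of cells in the immediate early-low tertile was 33.7% and 36.5% with no metallothionein UMI and 5.49% and 8.04% with 3 or more.

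Of 10 heat shock genes at 50 CPM, 3 were past the fold in the isotype library, with a median log2 ratio of 0.48, and 0 in the anti-Skint1 library, with a median of 0.30, beside the same background of 2.44% and 2.87%. Dnajb1, an Hsp70 co-chaperone, was 1231 against 558 CPM in the isotype library (log2 1.14, 1.01 to 1.27). Dnajb1 in the anti-Skint1 library gave 0.49 (0.33 to 0.65). Hspa5 was higher by 0.45 and 0.62 on the log2 scale, 1 of 3 endoplasmic reticulum stress genes past the fold in the anti-Skint1 library and 0 of 3 in the isotype library.

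Few genes of metal handling were abundant enough to be counted. Of 20 zinc sensing and transport genes only Slc39a6, a zinc importer, reached 50 CPM, and its log2 ratio was -0.01 (-0.51 to 0.44) and -0.12 (-0.63 to 0.36). Below that level, Mtf1 (15.2 CPM) gave -0.70 (-2.59 to 0.68) and 0.10 (-1.13 to 1.10). Slc30a1, the zinc exporter known as an MTF1 target, gave 1.17 (0.31 to 1.93) and 0.18 (-0.84 to 1.03), at 19.3 CPM over all cells. Of 4 copper genes, 0 were at least 1.5-fold higher in either library, and 0 in the isotype and 1 in the anti-Skint1 library were that much lower, where 5.59% and 3.68% of all genes were lower. Lists this short cannot be set apart from those shares. The 1 lower gene, Commd1, was 24.1 against 51.2 CPM in the anti-Skint1 library (log2 -1.09, -2.09 to -0.24) and -0.17 on the log2 scale in the isotype library.

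Lists for other known inputs to metallothionein genes held 4 or 5 genes at 50 CPM, too few to set 0 or 1 call apart from the background of 2.44% and 2.87%. Glucocorticoid response genes had 0 of 5 past the fold in both libraries, with medians of 0.16 and 0.08, and the kinase gene Sgk1 was the highest at 0.43 and 0.51. Nrf2 and oxidative stress genes had 1 of 4 in the isotype library (Sqstm1, an autophagy receptor, log2 0.65) and 0 of 4 in the anti-Skint1 library, with medians near 0 and of 0.11. Hypoxia genes had 0 of 4 and 1 of 4, the latter Vegfa at 0.88 (0.40 to 1.32).

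**Figure D4:**
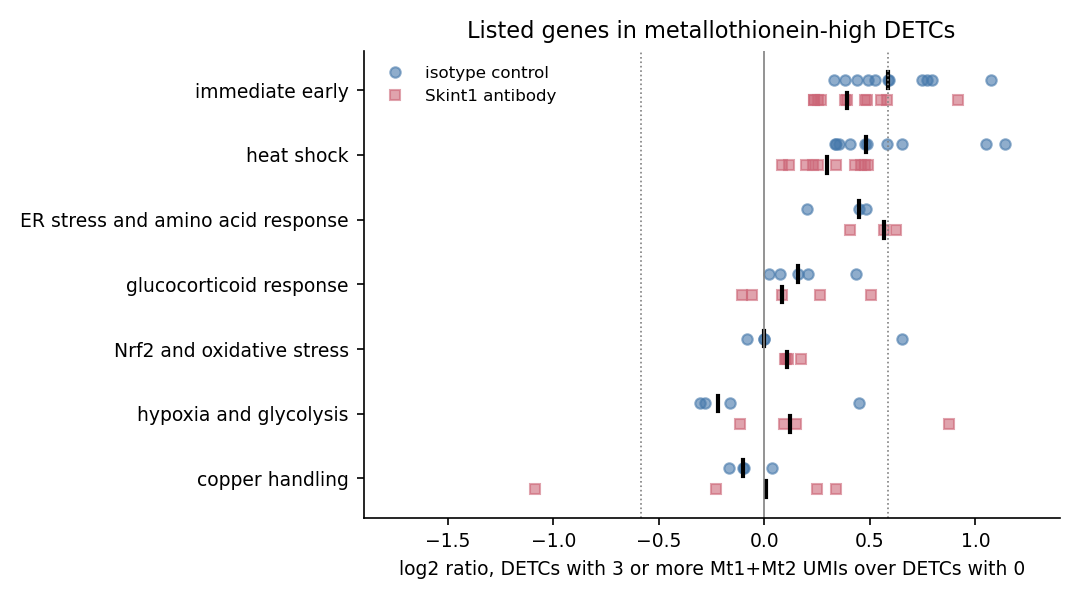
Log2 ratio of listed genes at 50 CPM or more in DETCs with 3 or more Mt1 and Mt2 UMIs over DETCs with 0, by list and library; points are genes, black bars are list medians, dotted lines mark 1.5-fold either way. Immediate early genes have medians of 0.59 (isotype) and 0.39 (anti-Skint1), and copper genes lie around 0 except Commd1 at -1.09.

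Cells of the alpha-beta T gate, a mixed class that also held Trdc, Il17a and Foxp3 transcripts, had Mt1 below heat shock-low DETCs in the isotype library and above them in the other. In the isotype library they held 77.4 CPM of Mt1 (59.4 to 99.3, 62 UMIs), a log2 ratio of -0.39 (-0.78 to -0.01) to heat shock-low DETCs. In the anti-Skint1 library they held 126 CPM (103 to 152, 105 UMIs), a log2 ratio of 0.49 (0.19 to 0.78). Mt1 passed the 1.5-fold mark in neither library. Of all genes 6.61% and 5.24% were that much higher and 25.4% and 25.1% that much lower, with median log2 ratios of -0.18 and -0.21, so the isotype value lay closer to the typical gene than to 0. The class also differed between libraries in its markers: Trdc was 300 CPM in the isotype and 546 CPM in the anti-Skint1 library, Il17a 64.9 and 126 CPM and Fos 1327 and 2067 CPM. All 7 alpha-beta T markers were detected and summed to 3142 and 2746 CPM, and the DETC markers to 2775 and 3038 CPM. In heat shock-low DETCs the alpha-beta T list summed to 2636 and 2233 CPM, led by Trbc1, with Trac, Cd4, Cd8a and Cd8b1 at 0 by the gate. The sum therefore separates the classes little. The part of the library differences in the Mt1 values was not tested. Without cells holding keratinocyte or myeloid UMIs the isotype ratio was -0.76 (0.589-fold) and the other 0.49. At 5% mitochondrial UMIs the ratios were -0.83 and 1.60, and with stricter gates -0.66 and 0.99. Mt2 was 9.99 CPM (8 UMIs) and 29.9 CPM (25 UMIs), 3.11-fold above heat shock-low DETCs in the anti-Skint1 library, a direction that turned (log2 -0.20) without the 10 highest cells of each group. One anti-Skint1 cell held 39 of the 105 Mt1 UMIs, and without the 10 highest cells both Mt1 ratios were below 0, at -2.18 and -1.09. Cells with Cd4 and no Foxp3 carried 61 of the anti-Skint1 UMIs (341 CPM, 44 cells) and 3 UMIs in the isotype library (18.9 CPM, 44 cells). Foxp3-positive cells had 19 UMIs in 17 isotype cells and 5 in 12 anti-Skint1 cells.

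In the ILC gate the level depended on barcodes with RNA of other lineages. All ILC barcodes gave 99.2 CPM of Mt1 (70.2 to 136) in the isotype library and 491 CPM (439 to 548) in the anti-Skint1 library, 0.98 and 5.50 times heat shock-low DETCs. The 14 and 32 barcodes with 3 or more keratinocyte or myeloid UMIs held 28 of 38 and 314 of 324 of those Mt1 UMIs. The remaining 68 and 107 barcodes had 10 Mt1 UMIs each, 33.2 CPM (15.9 to 61.1) and 21.8 CPM (10.4 to 40.0), and their log2 ratio to heat shock-low DETCs was -1.61 (-2.67 to -0.72) and -2.04 (-3.10 to -1.15). Without the mixed barcodes Mt1 was thus below heat shock-low DETCs, in a comparison where 30.7% and 31.8% of all genes were at least 1.5-fold lower, with medians of -0.18 and -0.23, and Mt1 ranked 2470 and 2577 from the top of 2827. DETCs of the immediate early-low tertile, at 30.8 and 27.3 CPM, were about as low as these ILC. Over all ILC barcodes, Mt1 was past 1.5-fold in the anti-Skint1 library alone, where 7.11% of genes were, against 8.98% in the isotype library. Mt2 in the ILC barcodes without other-lineage UMIs rested on 2 and 5 UMIs. Keratinocyte markers summed to 700 and 5388 CPM over all ILC barcodes, Krt14 leading, and to 36.6 and 45.7 CPM in those without other-lineage UMIs.

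Mt2 was lower relative to Mt1 in DETCs than in epithelial RNA. Each 3′ UMI is 1 tag per transcript, so no scaling by length was made. DETCs had 9.89 (8.47 to 11.5) and 9.97 (8.48 to 11.7) Mt2 UMIs per 100 Mt1 UMIs. With the free RNA estimate taken off both genes these were 6.30 and 5.59, or 8.21 and 7.47 from Krt14 alone. The libraries parted in heat shock-high cells: heat shock-low DETCs had 8.91 (6.89 to 11.4) and 10.7 (8.78 to 13.04) and heat shock-high DETCs 14.4 (10.9 to 18.7) and 4.51 (1.63 to 10.1), the last on 6 Mt2 UMIs. Keratin-rich barcodes, those with at least 1% keratinocyte-marker UMIs and no upper gene limit (71 and 132), had 45.9 (41.7 to 50.3) and 36.8 (34.6 to 39.3), and free RNA 54.3 and 47.7. ILC barcodes with other-lineage UMIs had 46.4 (22.1 to 92.6) and 33.1 (26.3 to 41.5), within or near the keratin-rich range. Alpha-beta T cells had 12.9 (5.34 to 27.0) and 23.8 (14.7 to 37.1), wide on 8 and 25 Mt2 UMIs. No tag-length run of 98 bases in either gene's exons occurred in another gene, 0 of 1340 for Mt1 and 0 of 506 for Mt2. Gm45774, annotated on the opposite strand, overlaps Mt2, and whether counting used strand is not given in the sources used here.

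**Figure D5:**
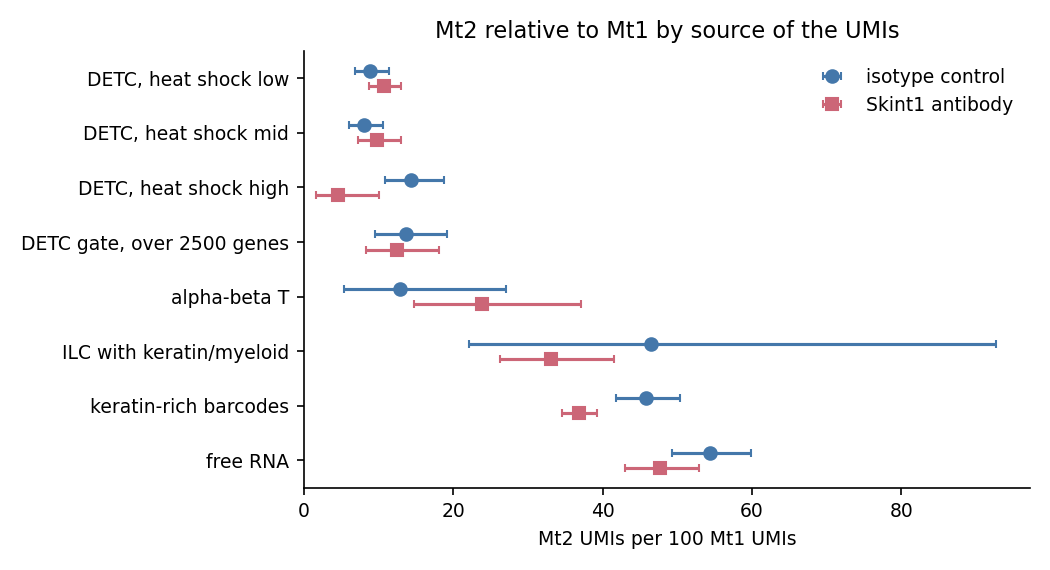
Mt2 UMIs per 100 Mt1 UMIs by source of the UMIs, with 1 point per library and exact 95% intervals for counting error. Heat shock-low and -mid DETCs lie between 8.09 and 10.7, keratin-rich barcodes at 45.9 and 36.8, and free RNA at 54.3 and 47.7.

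Between treatments, Mt1 was lower in DETCs of the anti-Skint1 library, by less than 1.5-fold. Over all DETCs the log2 ratio of anti-Skint1 over isotype was -0.49 (-0.58 to -0.40) for Mt1 and -0.48 (-0.78 to -0.17) for Mt2. In heat shock-low DETCs it was -0.18 (-0.31 to -0.04) for Mt1 and 0.09 (-0.35 to 0.54) for Mt2. Neither gene reached the fold, which 0.248% of genes did downward in each of these comparisons, with a median log2 ratio of -0.03 in both. Ranked from the most increased of the 2827 genes, Mt1 was 2812 over all DETCs and 2541 in heat shock-low DETCs. Among the 3 heat shock classes the gap was widest in heat shock-high cells, -0.79 (-1.08 to -0.51) for Mt1 and -2.46 (-3.96 to -1.26) for Mt2, and these cells were 9.99% of isotype and 4.45% of anti-Skint1 DETCs. Within them the direction depended on the immediate early tertile, as described above, with the anti-Skint1 library lower in the high tertile and higher in the middle one. By immediate early tertile, Mt1 gave -0.18 (-0.50 to 0.15) in the low, -0.27 (-0.42 to -0.13) in the middle and -0.62 (-0.76 to -0.49) in the high tertile. With no upper gene limit the heat shock-low ratio of Mt1 was 0.067. With 1 library per treatment none of these differences could be tested against replicate spread.

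Mt1 was higher in DETCs with effector transcripts and lower in dividing ones. DETCs with 3 or more Xcl1 and Gzmc UMIs, effector genes of an activated subset, held 197 CPM against 117 CPM in those with none in the isotype library. In the anti-Skint1 library the values were 134 and 88.2 CPM, log2 ratios of 0.74 (0.58 to 0.91) and 0.60 (0.34 to 0.86). At least 1.5-fold higher in that comparison were 0.955% and 1.03% of genes, with medians of -0.02 and -0.04, and Mt1 was among them, ranked 15 and 29 from the top, the latter being the last of the 29 called. Dividing DETCs, with 3 or more UMIs over 5 mitosis genes such as Top2a and Mki67, went the other way, with 44.6 against 133 CPM (13 UMIs, 55 cells) and 30.9 against 94.4 CPM (10 UMIs, 54 cells), log2 ratios of -1.57 (-2.49 to -0.80) and -1.61 (-2.67 to -0.73). Of all genes 13.4% and 17.8% were at least 1.5-fold lower there, with medians of -0.03 and -0.07, and Mt1 ranked 2814 and 2802 of 2827 from the top. Mt2 in effector-rich DETCs was 19.2 against 11.4 CPM (log2 0.75, 0.18 to 1.29) in the isotype library. In the anti-Skint1 library it was 10.8 against 9.44 CPM (log2 0.19, -0.84 to 1.07), which counting error does not separate. Mt2 in dividing DETCs rested on 1 UMI in the isotype library and 7 UMIs in the other, where it was 21.6 against 9.08 CPM (log2 1.25, -0.09 to 2.33).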

How the data were processed

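Single-cell RNA was captured with 10x Genomics 3′ chemistry from 1 library per treatment. The counts that the authors deposited are raw UMIs for every gene in every barcode, unfiltered, from CellRanger 3.0.2; the labels give the build as mm10 (GRCm38). Members and gene lists were chosen with earlier results of these data known.

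A barcode counted as a cell at 500 to 2500 genes with mitochondrial UMIs of 12% or less, and classes were gated on UMIs as the report states. Doublets were not called with a dedicated tool: gates left out Trac, Cd4 and Cd8 in DETCs, and cells with 3 or more keratinocyte or myeloid UMIs were left out as an alternative. UMIs were summed per library and class and divided by the class total (CPM). Levels have exact Poisson, shares Clopper-Pearson and ratios conditional binomial 95% intervals, with no pseudocount. Genes were compared at 50 CPM or more over all kept cells, with 1.5-fold as the mark. Genes named besides the pair were list members, up to 4 per list, and the first 5 by the lower of both libraries' correlations with each member, on ln(1 + 10000 × UMIs / total). Mtf1 and Slc30a1 were named for their role in the pathway, and Hspa5 and the comparisons by immediate early tertile and by metallothionein UMIs, and the gene-wide shares for ILC without other-lineage UMIs, effector-rich and dividing DETCs, were chosen after seeing the data. With 1 library per treatment no test was run. The calculation of ratios was checked on counts simulated with Poisson error and no spread between cells, so that check cannot speak to such spread. Python 3.11.15, numpy 2.4.6, scipy 1.17.1 and pandas 2.3.3 were used. Alternatives were the gene limit, the mitochondrial limit, other-lineage cells, the scaling, weights, thinning, gates and the highest cells. Stricter gates asked for Trdv4 in DETCs, at least 3 CD3 UMIs and no Trdc in alpha-beta T cells, and no Trac or Trdc in ILC. No column of per-sample values was left unmapped.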

Additional observations from a re-analysis of the deposited data

Results flagged for a closer look

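Of the ratios of heat shock-high DETCs, alpha-beta T cells and all ILC barcodes to heat shock-low DETCs, 3 had opposite signs in the isotype and anti-Skint1 libraries, and the difference was not tested. Mt1 in alpha-beta T cells was -0.39 and 0.49 on the log2 scale. Mt1 in ILC was -0.028 and 2.46, and both were negative without barcodes of other lineages. Mt2 in heat shock-high DETCs was 2.28 and -0.27, the latter on 6 UMIs. Opposite signs also occurred for Mt2 in heat shock-mid DETCs (0.20 and -0.11) and in ILC without other-lineage UMIs (-0.44 and 0.18), all within counting error of 0.

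Signal also appeared in barcodes outside the classes. Keratin-rich barcodes, most of them above the gene limit, held 1007 and 1429 CPM of Mt1, 462 and 527 CPM of Mt2 and 1599 and 2707 CPM of Mt4, the metallothionein of stratified epithelium, in the isotype and anti-Skint1 libraries. In DETCs Mt4 was 0.887 and 2.08 CPM.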

How the results depend on the processing

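Log2 ratios were recomputed under each alternative for 18 combinations of comparison, gene and library (163 values), of which 111 stayed within the 95% interval of the reported value, 45 moved out of it and 7 reversed a ratio whose interval excluded 0. In all, 21 of the 163 had the other sign, the rest from ratios whose interval held 0. No paired analysis was possible because each treatment has 1 library. Scaling without mitochondrial and heat shock genes moved none of 18.

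For Mt1 and Mt2 over all DETCs in place of heat shock-low DETCs, anti-Skint1 over isotype was -0.49 and -0.48, the latter a change of sign from 0.09. With no upper gene limit, which adds larger and keratin-rich barcodes, anti-Skint1 over isotype for Mt1 in heat shock-low DETCs changed direction to 0.067, ILC over heat shock-low DETCs was 2.93 (Mt1, a change of sign from -0.028) and 4.48 (Mt2) in the isotype and 3.35 and 4.61 in the anti-Skint1 library, immediate early-high over -low was 2.36 and 2.12, and 2.60 and 2.04, and heat shock-high over -low for Mt2 in the isotype library was 1.5. At 5% mitochondrial UMIs, alpha-beta T over heat shock-low DETCs was -0.83 (Mt1, isotype), 1.60 (Mt1, anti-Skint1) and 2.76 (Mt2, anti-Skint1), ILC -1.59 (Mt1, isotype), 4.12 and 5.73 (Mt1 and Mt2, anti-Skint1), immediate early-high over -low 3.21 (Mt1, isotype), 2.82 and 2.32 (Mt1 and Mt2, anti-Skint1), and anti-Skint1 over isotype -0.40 for Mt1. Mt2 in ILC of the isotype library had no value there.

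Without other-lineage cells, ILC over heat shock-low DETCs was -1.61 (Mt1) and -0.46 (Mt2) in the isotype library and -2.03 and 0.26 in the other, reversing Mt2 in the isotype and Mt1 in the anti-Skint1 library. Without the 10 highest cells of each group, 4 ratios of the anti-Skint1 library reversed: heat shock-high over -low for Mt1 (-0.74), alpha-beta T for Mt1 (-1.09) and Mt2 (-0.20), and ILC for Mt1 (-0.69), with ILC for Mt2 at 0.74. In the isotype library heat shock-high over -low was 1.00 (Mt1) and 0.78 (Mt2) and alpha-beta T -2.18 (Mt1). Immediate early-high over -low was then 3.18 and 4.90 for Mt1 and Mt2 in the isotype library and 2.72 for Mt1 in the other. Small groups lose a larger share of their cells there by construction, and 4 combinations had no UMIs left.

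Thinning to 2000 UMIs gave 1.79 for heat shock-high over -low (Mt1, isotype), 0.67 for ILC (Mt2, isotype), 4.26 for immediate early-high over -low (Mt2, isotype) and 1.70 and 3.40 for ILC (Mt1 and Mt2, anti-Skint1). Weighing each cell the same gave 1.79 for heat shock-high over -low (Mt1, isotype) and 1.79 and 3.37 for ILC (Mt1 and Mt2, anti-Skint1). Heat shock edges of 0.1% and 0.5% gave 1.13 and 1.34 (Mt1 and Mt2, isotype) and 0.48 (Mt1, anti-Skint1). Stricter gates gave 0.99 for alpha-beta T and 2.80 for ILC (Mt1, anti-Skint1) and -0.32 for anti-Skint1 over isotype (Mt1), and median of ratios scaling 2.71 for ILC (Mt1, anti-Skint1). Where no construction is named, the cause was not tested.

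At 10 CPM in place of 50 CPM both members were counted, and the share of genes at least 1.5-fold higher was 2.79% and 4.35% (from 1.52% and 1.45%) for heat shock-high over -low, 10.4% and 8.28% (from 6.61% and 5.24%) for alpha-beta T, 1.71% and 2.60% (from 0.955% and 1.03%) for effector-rich DETCs and 5.90% and 6.45% (from 2.44% and 2.87%) for metallothionein-high DETCs, where the share lower was 16.6% and 13.5% (from 5.59% and 3.68%). The share at least 1.5-fold lower in the anti-Skint1 library was 0.710% in heat shock-low and 0.473% in all DETCs (from 0.248% in both). The free RNA share of DETC UMIs was 1.45% and 1.68% from Krt14 alone in place of 2.96% and 2.81%. Less free RNA, Mt2 per 100 Mt1 in DETCs was 6.30 and 5.59, or 8.21 and 7.47 by Krt14 alone (from 9.89 and 9.97). These estimates, the immediate early comparison, its alternatives and the one that kept other-lineage cells in the metallothionein-high group were added after seeing the data. With those cells kept, keratinocyte markers in the metallothionein-high DETCs of the anti-Skint1 library were 222 CPM in place of 54.8 CPM, and the immediate early medians were 0.60 and 0.40.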

Other observations

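Mt4, the metallothionein of stratified epithelium, had 13 and 39 UMIs in DETCs of the isotype and anti-Skint1 libraries, 0 and 1 in alpha-beta T cells and 0 and 236 in ILC, 235 of the latter in barcodes with keratinocyte or myeloid UMIs. Keratinocyte markers summed to 700 CPM in the isotype ILC, where Mt4 was at 0, and to 5388 CPM in the anti-Skint1 ILC. Mt3, the brain metallothionein, had 1 and 4 UMIs in the keratin-rich barcodes.

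DETC-gated barcodes above 2500 genes, 303 and 278 in number, held 97.1 CPM of Mt1 (86.2 to 109) in the isotype library and 97.8 CPM (86.2 to 111) in the anti-Skint1 library. Among DETCs of 500 to 2500 genes the libraries stood at 131 and 93.3 CPM, and their ratio was not tested against replicates in either range. Mt2 in these larger barcodes was 13.2 and 12.2 CPM.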
